A study of Mus musculus with 4 samples.

Results

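Exhausted CD8 T cells are cytotoxic T cells that have been stimulated by antigen for a long time. They carry the inhibitory receptors PD-1, encoded by *Pdcd1*, and TIM-3, encoded by *Havcr2*, which restrain signalling from the T cell receptor. In tumors such cells are known to keep granzymes and chemokines while losing genes of naive and memory T cells, among them the transcription factor TCF-1, encoded by *Tcf7*.

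Here *Pdcd1*+ *Havcr2*+ CD8 T cells were taken from single-cell RNA-seq of mouse tumors. The members were chosen by their own UMI counts (unique molecular identifiers, each 1 captured transcript). A member had at least 1 UMI each of *Cd8a*, *Pdcd1* and *Havcr2*, no *Foxp3* UMI and at least 3 UMIs of *Cd3d*, *Cd3e* and *Cd3g* together. It also had at most 3 UMIs of the macrophage genes *C1qa*, *C1qb* and *Lyz2*, and fewer than 3 of the proliferation genes *Mki67* and *Top2a*. There were 239 members among 1213 CD8 T cells that met all conditions other than those on *Pdcd1* and *Havcr2*, and among 11649 cells of all kinds that passed the filters. The comparison cells were the 940 CD8 T cells of the same 4 libraries with no *Havcr2* UMI, called *Havcr2*-zero below whatever their *Pdcd1* count.

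The tumors were grown under the skin of C57BL/6 mice, whose age the sources used here do not give, from a B16-F10 melanoma line that makes the green fluorescent protein ZsGreen (ZsG) when doxycycline is present. The line was 1 single-cell clone, all mice drank doxycycline for 4 days, and tumors were taken at day 8. Cells were sorted as ZsG-positive, with green material from the tumor cells, or ZsG-negative, once among all CD45+ leukocytes (CD45 sort) and once among T cells (T cell sort, labelled CD45+ TCRb+). Each of the 4 groups was 1 library, and the number of animals behind it is unknown here. No test between groups was therefore possible, every interval below is a 95% interval for counting error only, and no spread between animals is known. Intervals of CPM levels and of their log2 ratios treat UMIs as independent, so they leave out the spread between cells too. According to the study the CD45 sort took only bright ZsG cells, so that most lymphocytes carrying ZsG lay in its ZsG-negative gate. In the T cell sort the file names and barcode numbers assign the larger library to ZsG-positive cells, whereas the library names in the labels give the opposite order. If that order were the true one, every ZsG difference of the T cell sort below would change sign. By flow cytometry, which measures protein, the study found cells with both PD-1 and TIM-3 more often among ZsG-positive than ZsG-negative CD8 T cells. Under its own assignment of the T cell libraries it also reported exhausted CD8 T cells as enriched in the ZsG-positive sample, by projection onto a reference atlas. Neither result was used here to choose the order. Which order is the true one was not tested here.

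The CD45 sort gave 114 members from the ZsG-negative and 5 from the ZsG-positive library, and the T cell sort gave 36 and 84. The 5 cells of the CD45 ZsG-positive library were too few to describe a population, and its values are shown only beside the others. The macrophage limit removed 64.9% of the *Foxp3*-zero CD8 T cells of that library, against 2.50% in the CD45 ZsG-negative, 3.63% in the T cell ZsG-negative and 11.3% in the T cell ZsG-positive library. The proliferation limit removed 286 further *Pdcd1*+ *Havcr2*+ cells from the CD45 ZsG-negative library, 28 from the CD45 ZsG-positive, 12 from the T cell ZsG-negative and 33 from the T cell ZsG-positive library. In the CD45 sort cells over that limit thus outnumbered the members, and in the T cell sort they were the minority.

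Depth differed between the compared cells. The median member held 14962 UMIs in the CD45 ZsG-negative, 12588 in the CD45 ZsG-positive, 10364 in the T cell ZsG-negative and 11214 in the T cell ZsG-positive library. The median *Havcr2*-zero cell held 6238, 4292, 6120 and 5866 UMIs in the same order. A deeper cell is more likely to show 1 UMI of *Havcr2*, so levels are given as counts per 1000000 UMIs (CPM) of the summed UMIs of a set of cells, and shares of cells after thinning each cell to 2000 UMIs only where this is stated. The member shares and the counts of cells with a UMI (such as 52 of 84) otherwise come from cells at full depth, where deeper cells show a gene more often. Between any 2 libraries 1 to 6 cell barcodes were shared, and no member barcode was shared.

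Markers that the rule did not use are given beside the label, as a description and not as an independent check. *Rgs16* was among the genes listed for these cells beforehand. Most *Havcr2*-zero cells also lacked *Pdcd1*, 251 of 360 in the CD45 ZsG-negative, 17 of 25 in the CD45 ZsG-positive, 238 of 305 in the T cell ZsG-negative and 167 of 250 in the T cell ZsG-positive library. The second CD8 chain, *Cd8b1*, stood at 615 CPM in the members of the CD45 ZsG-negative, 415 in the CD45 ZsG-positive, 788 in the T cell ZsG-negative and 622 in the T cell ZsG-positive library. *Rgs16*, a regulator of G protein signalling, stood at 238, 311, 222 and 304 CPM in the same order, against 39.7, 72.6, 12.8 and 46.3 CPM in *Havcr2*-zero cells. *Lag3*, a further inhibitory receptor, stood at 160, 138, 186 and 229 CPM against 53.5, 50.8, 26.5 and 94.9 CPM, and *Tox*, a transcription factor of exhausted cells, at 170, 138, 144 and 96.0 CPM against 65.7, 94.4, 38.3 and 59.6 CPM. These 3 genes were higher in the members of every library as the rule stands, although the CD45 ZsG-positive values rest on few UMIs of 5 members. *Tox* did not set the members apart from *Pdcd1*+ *Havcr2*-zero cells in every library, since those cells stood at 122, 177, 55.0 and 91.9 CPM in the same order, above the members of the CD45 ZsG-positive and close to those of the T cell ZsG-positive library. With the rule reapplied after thinning to 2000 UMIs, *Lag3* turned to -0.43 in the T cell ZsG-positive and *Tox* to -0.58 in the T cell ZsG-negative library on the log2 scale.

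Markers of other cells were measured as summed lists. *Cd4* had no UMI in the members of 3 libraries, and the T cell ZsG-positive library alone showed UMIs of all 3 CD4 T cell markers, together 13.5 CPM. The macrophage gene *Adgre1* was at 0 in all 4 sets of members. All 14 macrophage and monocyte genes, which include *Ctsb* and *Cst3* that T cells also express, summed to 452 CPM in the CD45 ZsG-negative, 1002 in the CD45 ZsG-positive, 276 in the T cell ZsG-negative and 372 in the T cell ZsG-positive members. In *Havcr2*-zero cells the same 14 genes summed to 691, 2941, 494 and 679 CPM, more than in the members of each library, and the part of this difference in the values below was not tested. The NK cell genes summed to 203, 121, 42.6 and 88.0 CPM, with *Klre1* leading in 3 libraries and *Klri2* in the T cell ZsG-positive one. The 10 dendritic cell genes, which include *Cd74*, summed to 44.5, 207, 31.4 and 145 CPM in the members and 238, 2643, 142 and 147 CPM in *Havcr2*-zero cells. *Clec9a*, *Flt3*, *Cd209a* and *Fscn1* were at 0 in all 4 sets of members, and *Cd74*, *H2-Ab1*, *Itgax* and *Cd74* led in turn. In both sets the sum was higher on the ZsG-positive side of both sorts, and their part in the ZsG differences below was not tested. The 4 gamma-delta T cell genes summed to 6.89, 0, 0 and 1.79 CPM in the members and to 40.9, 21.8, 25.1 and 35.3 CPM in *Havcr2*-zero cells, with *Tcrg-C2* leading in the latter, so the comparison cells held more of these transcripts in each library, and their part in the values below was not tested. The plasmacytoid dendritic cell genes *Siglech* and *Ccr9* summed to 1.59, 0, 0 and 53.0 CPM in the members against 26.7, 0, 5.89 and 53.8 CPM. B cell markers stayed at or below 12.7 CPM and the 10 melanocyte genes at or below 8.08 CPM in the members, and reached 19.7 and 17.9 CPM in *Havcr2*-zero cells of the T cell ZsG-positive library.

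The genes that chose the members are given as a description only. *Cd8a* stood at 510, 605, 599 and 731 CPM in the members, in the order CD45 ZsG-negative, CD45 ZsG-positive, T cell ZsG-negative and T cell ZsG-positive. *Havcr2* stood at 206 CPM in the members of the CD45 ZsG-negative, 104 in the CD45 ZsG-positive, 211 in the T cell ZsG-negative and 178 in the T cell ZsG-positive library. In single members of the T cell ZsG-positive library it ranged from 19.9 to 854 CPM with a median of 154. *Pdcd1* stood at 411, 432, 431 and 348 CPM, against 133, 145, 80.1 and 157 CPM in *Havcr2*-zero cells, part of which carry *Pdcd1*. *Havcr2* lies at chr11:46454935-46481255 on the plus strand, *Pdcd1* at chr1:94038305-94052553 on the minus strand, and *Ifng* at chr10:118441046-118445892 on the plus strand of GRCm38.

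**Figure D1:**
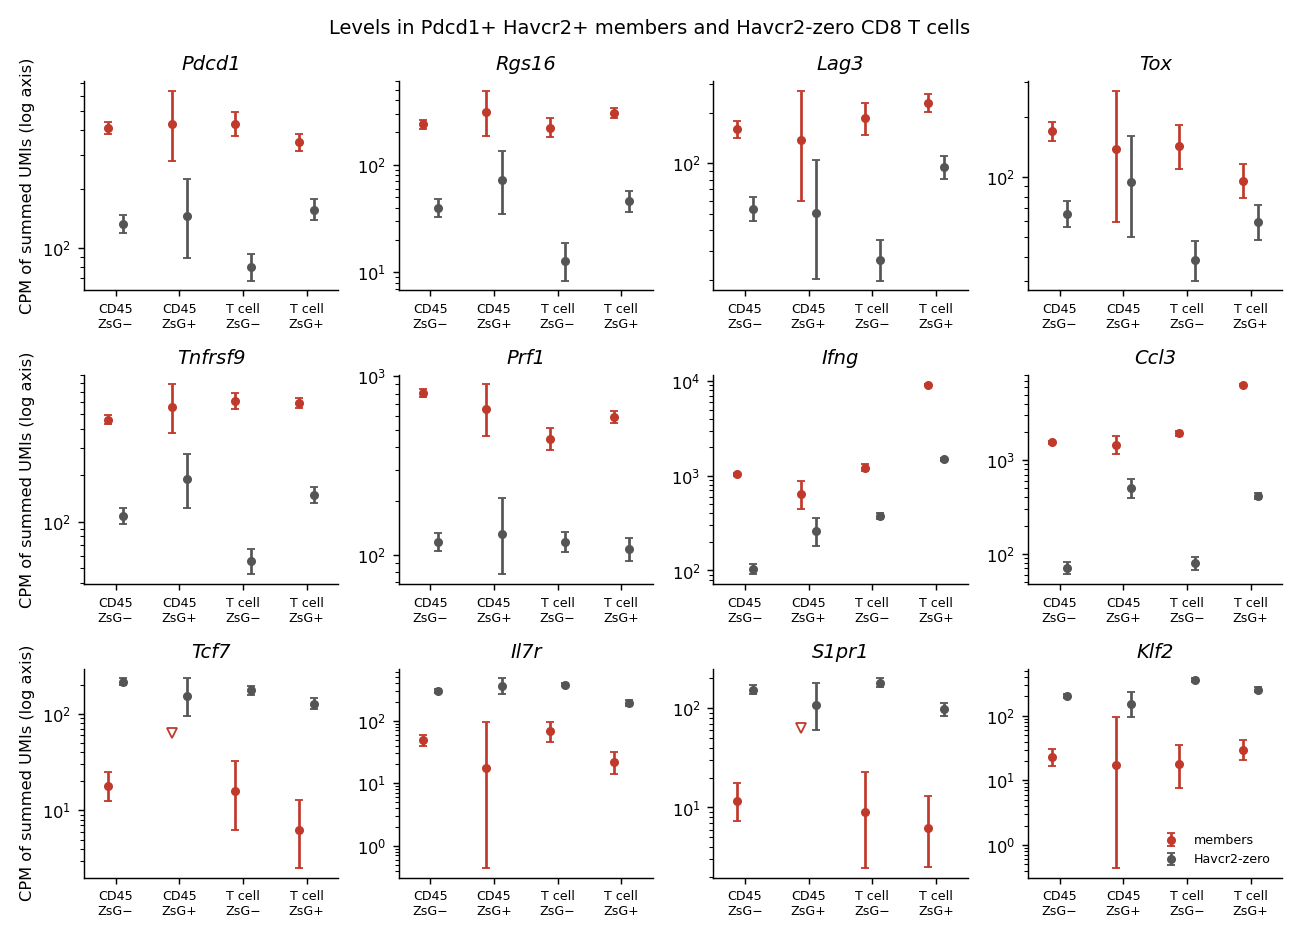
Levels of 12 genes in *Pdcd1*+ *Havcr2*+ members (red) and *Havcr2*-zero CD8 T cells (grey) of the 4 libraries, as CPM of summed UMIs on a log axis with 95% Poisson intervals, where an open triangle is the upper limit of a sum of 0. In every library the red points of *Rgs16*, *Lag3*, *Tnfrsf9*, *Prf1*, *Ifng* and *Ccl3* lie above the grey ones, and those of *Tcf7*, *Il7r*, *S1pr1* and *Klf2* below them.

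The promoters of *Havcr2*, of the chemokine genes *Xcl1* and *Ccl3* and of *Ifng* are shown, the first because it defines the members and the others because their values carry the ZsG difference below. Each runs 5′ to 3′ from 250 bases before to 50 bases after the RefSeq start site (GRCm38.p6). Capitals mark matches on either strand to AP-1 (TGANTCA), NFAT (TGGAAA), NR4A (AAAGGTCA) or RUNX (TGTGGT) motifs.
Havcr2, chr11:46454681-46454980, plus strand: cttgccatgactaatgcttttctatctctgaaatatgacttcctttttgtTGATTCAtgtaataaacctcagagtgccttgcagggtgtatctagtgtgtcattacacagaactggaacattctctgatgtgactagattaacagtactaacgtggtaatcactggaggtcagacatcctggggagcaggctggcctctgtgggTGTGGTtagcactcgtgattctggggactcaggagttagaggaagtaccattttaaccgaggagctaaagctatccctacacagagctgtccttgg
Xcl1, chr1:164935473-164935772, minus strand: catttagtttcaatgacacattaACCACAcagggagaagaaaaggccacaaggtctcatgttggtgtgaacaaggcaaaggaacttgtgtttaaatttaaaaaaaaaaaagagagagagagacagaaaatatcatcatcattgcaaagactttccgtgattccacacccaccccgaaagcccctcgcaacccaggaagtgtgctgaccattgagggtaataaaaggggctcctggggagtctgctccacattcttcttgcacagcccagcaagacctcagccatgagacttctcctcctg
Ccl3, chr11:83649329-83649628, minus strand: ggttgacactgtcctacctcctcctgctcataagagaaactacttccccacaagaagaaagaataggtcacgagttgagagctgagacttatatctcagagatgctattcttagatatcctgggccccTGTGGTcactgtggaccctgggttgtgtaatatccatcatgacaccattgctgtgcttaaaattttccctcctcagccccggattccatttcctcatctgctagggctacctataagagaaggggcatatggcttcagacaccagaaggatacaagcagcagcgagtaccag
Ifng, chr10:118440796-118441095, plus strand: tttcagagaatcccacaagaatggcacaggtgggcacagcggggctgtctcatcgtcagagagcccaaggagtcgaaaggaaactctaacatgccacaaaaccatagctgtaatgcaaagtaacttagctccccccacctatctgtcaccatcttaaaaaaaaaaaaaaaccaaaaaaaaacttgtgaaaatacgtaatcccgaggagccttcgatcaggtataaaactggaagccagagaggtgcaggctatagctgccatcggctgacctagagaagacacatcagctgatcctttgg
The *Havcr2* window held 1 AP-1 and 1 RUNX match, the *Xcl1* and *Ccl3* windows 1 RUNX match each, and the *Ifng* window none. Over all 32851 promoters of the same length, 7.81% held the AP-1, 21.4% the NFAT, 1.51% the NR4A and 16.8% the RUNX letters. The searched words do not overlap one another in these windows, and a match is a description of the letters only.

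The share of CD8 T cells that were members was higher in the ZsG-positive than in the ZsG-negative T cells. It was 24.2% (exact binomial interval 19.8% to 29.1%, 84 of 347 cells) in the T cell ZsG-positive and 10.2% (7.25% to 13.8%, 36 of 353 cells) in the T cell ZsG-negative library, and these intervals do not overlap. The log2 ratio was 1.25 (0.67 to 1.85). In the CD45 sort the shares were 16.1% (5.45% to 33.7%, 5 of 31 cells) and 23.7% (19.9% to 27.7%, 114 of 482 cells). Their ratio was not resolved with these numbers of cells, with a log2 of -0.55 (-2.20 to 0.71). When the rule was applied after thinning every cell to 2000 UMIs, the T cell sort gave 4.64% (2.34% to 8.15%, 11 of 237 cells) and 2.90% (1.07% to 6.20%, 6 of 207 cells), intervals that overlap.

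**Figure D2:**
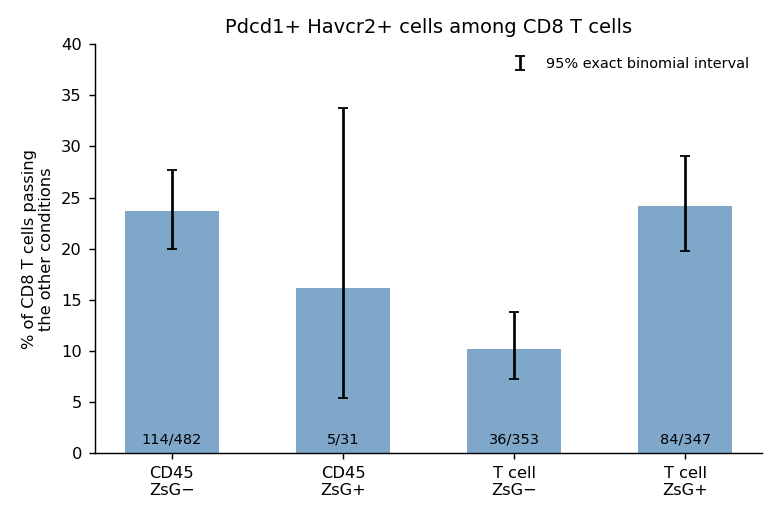
Share of CD8 T cells that were *Pdcd1*+ *Havcr2*+ members in each library (bars, in percent, with member and CD8 T cell numbers) with exact binomial 95% intervals. The T cell ZsG-positive bar at 24.2% stands above the ZsG-negative bar at 10.2%, and the CD45 ZsG-positive bar rests on 5 cells.

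Against *Havcr2*-zero CD8 T cells of the same library the members had more transcripts of several chemokines and cytokines, of *Prf1*, *Tnfrsf9* and *Tnfrsf4* and of most glycolytic enzymes, and fewer of naive, memory and interferon-induced genes. This is a description with no test, since the members were chosen on this contrast. Genes with at least 50 UMIs over both sets were counted as past 2-fold from a log2 ratio of 1. Higher past 2-fold were 6.28% of 6561 genes in the CD45 ZsG-negative, 5.5% of 509 in the CD45 ZsG-positive, 6.5% of 4834 in the T cell ZsG-negative and 6.13% of 5152 in the T cell ZsG-positive library. Lower past 2-fold were 7.41%, 6.09%, 9.47% and 7.88% in the same order.

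Several chemokines and cytokines were higher in the members. *Ccl3*, which attracts monocytes and T cells, stood at 1555 CPM in the members of the CD45 ZsG-negative, 1452 in the CD45 ZsG-positive, 1930 in the T cell ZsG-negative and 6288 in the T cell ZsG-positive library, against 69.9, 501, 79.1 and 415 CPM in *Havcr2*-zero cells. Its relative *Ccl4* stood at 2841, 3335, 4509 and 8497 CPM against 294, 1794, 320 and 810 CPM. *Ifng*, which encodes interferon gamma, stood at 1033, 639, 1214 and 9073 CPM against 103, 261, 378 and 1496 CPM. All 3 were higher in the members of each library, and the T cell ZsG-positive members had the highest level of each. *Ccl5*, a chemokine of resting memory cells too, went the other way, at 3513, 2489, 3532 and 3569 CPM against 5565, 5018, 8742 and 6625 CPM. With the whole rule reapplied at 2000 UMIs, the *Ifng* log2 ratio turned from 2.60 to -2.26 in the T cell ZsG-positive library with 11 members, whereas thinning the cells with their membership kept gave 3.05. *Ccl3*, *Ccl4* and *Ccl5* also turned in that library, *Ccl5* in the CD45 ZsG-negative library too (0.53), and *Ifng*, *Gzmb* and *Tnfrsf9* in the T cell ZsG-negative library with 6 members.

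Of 17 cytokine and chemokine genes, 5 of 10 measured were past 2-fold higher and 1 lower in the CD45 ZsG-negative library, 5 of 9 higher and 2 lower in the T cell ZsG-negative and 8 of 12 higher and 0 lower in the T cell ZsG-positive library. Their median log2 ratios were 1.29, 1.68 and 2.40, beside 0.09, 0.08 and 0.04 over all measured genes. *Tnfsf8*, the ligand of CD30, was the lowest of the list in the CD45 ZsG-negative and T cell ZsG-negative libraries.

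Killing genes differed by gene. *Prf1*, the pore-forming perforin, stood at 805, 657, 444 and 592 CPM in the members, in the order CD45 ZsG-negative, CD45 ZsG-positive, T cell ZsG-negative and T cell ZsG-positive, against 118, 131, 118 and 107 CPM. *Gzmb*, granzyme B, stood at 2373, 691, 2733 and 3139 CPM against 478, 915, 1086 and 911 CPM, and was higher in the members of all libraries other than the one with 5. Of 17 granule genes, 6 of 14 measured were past 2-fold higher and 1 lower in the CD45 ZsG-negative library, and 4 of 13 higher and 2 lower in each T cell library, where 7 lay above and 6 below 0. *Gzmm* in the CD45 ZsG-negative and T cell ZsG-negative and *Gzma* in the T cell ZsG-positive library were the lowest of the list.

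Among receptors, *Tnfrsf9* (4-1BB) stood at 459, 553, 610 and 589 CPM against 108, 189, 55.0 and 149 CPM in the same order of libraries, and *Tnfrsf4* (OX40) at 312, 415, 283 and 261 CPM against 77.5, 21.8, 13.8 and 64.2 CPM. Both are costimulatory receptors that activated T cells display. Their log2 ratios in the CD45 ZsG-negative, T cell ZsG-negative and T cell ZsG-positive libraries were 2.08, 3.47 and 1.98 for *Tnfrsf9* and 2.01, 4.36 and 2.02 for *Tnfrsf4*. They were the 2 of 11 measured costimulatory receptors past 2-fold higher in each of these libraries, none was past 2-fold lower, and the list medians were 0.33, 0.33 and 0.16. *Il2ra*, a chain of the interleukin-2 receptor, had log2 ratios of 2.27, 1.91 and 2.93, and *Tfrc*, the transferrin receptor that brings iron into dividing cells, 2.26, 2.25 and 1.77. Of the inhibitory receptors other than the 2 used by the rule, 2 of 10 measured in the CD45 ZsG-negative, 4 of 9 in the T cell ZsG-negative and 3 of 9 in the T cell ZsG-positive library were past 2-fold higher and none was lower. *Entpd1* (CD39) led in the first, *Lag3* in the second and *Cd200* in the third.

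Of the exhaustion and effector transcription factors, 6 of 20 measured were past 2-fold higher and 2 lower in the CD45 ZsG-negative, 5 of 19 higher and 1 lower in the T cell ZsG-negative and 4 of 20 higher and 2 lower in the T cell ZsG-positive library. *Zbtb32*, a repressor induced in stimulated lymphocytes, had log2 ratios of 2.38, 2.87 and 2.71 in the CD45 ZsG-negative, T cell ZsG-negative and T cell ZsG-positive libraries. *Irf8* had 0.98, 2.18 and 1.67, and *Bhlhe40*, a regulator of cytokine production, 1.39, 1.37 and 0.72. With the rule reapplied at 2000 UMIs *Irf8* turned to -0.091 in the last. *Ikzf2* (Helios) was the lowest of the factors measured in each library, which were 20, 4, 19 and 20 of the 22 in the CD45 ZsG-negative, CD45 ZsG-positive, T cell ZsG-negative and T cell ZsG-positive library. Of 15 homing and residence genes measured, 10 lay below 0 in the CD45 ZsG-negative library (median -0.33, 2 past 2-fold higher and 5 lower), 13 in the T cell ZsG-negative (median -0.65, 2 higher and 6 lower) and 13 in the T cell ZsG-positive library (median -1.02, 1 higher and 8 lower). *Rgs16* was the highest of them in each, and *Cxcr3*, *Itga1* and *Itgb7* in turn the lowest. The chemokine receptor *Cxcr6*, which marks tissue-resident T cells, stood at 414, 380, 332 and 322 CPM against 138, 211, 144 and 177 CPM, higher in the members of every library. *Itgae* (CD103), a residence marker, was nearly absent, at 1.79 CPM or less in every set of members.

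Glycolysis genes were higher. Past 2-fold higher were 12 of 19 measured in the CD45 ZsG-negative, 13 of 18 in the T cell ZsG-negative and 9 of 18 in the T cell ZsG-positive library, with medians of 1.22, 1.34 and 0.98, and 1 gene, *Pdk1* in the T cell ZsG-negative library, was past 2-fold lower. In the 5-cell library all 9 measured were above 0. *Tpi1*, triosephosphate isomerase, had log2 ratios of 2.09, 2.62 and 1.51, *Pkm*, pyruvate kinase, 1.42, 1.54 and 1.08, and *Ldha*, which makes lactate, 1.56, 1.74 and 0.83. The 80 ribosomal protein genes had medians of -0.21, -0.13 and -0.10, and nuclear genes of oxidative phosphorylation 0.49, 0.48 and 0.27. The 13 mitochondrially encoded genes had medians of -0.21, -0.28 and -0.37. Median mitochondrial percentages were 4.64, 3.96, 3.72 and 3.66 in members of the CD45 ZsG-negative, CD45 ZsG-positive, T cell ZsG-negative and T cell ZsG-positive library. In *Havcr2*-zero cells they were 5.21, 5.31, 4.47 and 4.54, higher in each library, and their part in these values was not tested. Cell cycle genes had medians of 1.73, 0.72 and 0.51, although the rule capped *Mki67* and *Top2a* in both compared sets. Past 2-fold higher were 15 of 18 measured in the CD45 ZsG-negative, 3 of 10 in the T cell ZsG-negative and 2 of 14 in the T cell ZsG-positive library. In the same order 0, 3 and 3 lay below 0. In the 2 T cell libraries the list summed to 1876 and 2218 CPM in the members against 1682 and 2026 CPM.

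Naive and memory genes were lower in the members. Past 2-fold lower were 15 of 16 measured in the CD45 ZsG-negative and 12 of 16 in each T cell library, with medians of -2.47, -2.84 and -2.96. *Tcf7* stood at 18.0 CPM in the CD45 ZsG-negative, at 0 in the CD45 ZsG-positive, 15.7 in the T cell ZsG-negative and 6.28 in the T cell ZsG-positive members, against 213, 152, 174 and 127 CPM. The trafficking receptor *S1pr1*, which lets T cells leave tissue, stood at 11.7, 0, 8.98 and 6.28 CPM against 154, 109, 181 and 97.8 CPM. Its activator *Klf2* stood at 22.8, 17.3, 18.0 and 29.6 CPM against 203, 152, 357 and 253 CPM. *Il7r*, the receptor of the survival cytokine IL-7, stood at 48.3, 17.3, 67.3 and 21.5 CPM against 297, 363, 378 and 190 CPM. The log2 ratios of *Lef1*, a partner of TCF-1, were -2.33, -3.33 and -2.90 in the 3 larger libraries, and those of the survival gene *Bcl2* -2.67, -3.51 and -3.52. *Ccr7*, a lymph node homing receptor, was at 82.7, 17.3, 89.8 and 126 CPM in the members against 209, 211, 111 and 119 CPM, and had a log2 ratio of 0.08 in the T cell ZsG-positive library.

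Interferon-induced genes were lower as well. Past 2-fold lower were 14 of 23 measured in the CD45 ZsG-negative, 15 of 24 in the T cell ZsG-negative and 15 of 23 in the T cell ZsG-positive library, and none was past 2-fold higher. *Isg15*, a ubiquitin-like protein, stood at 96.0, 86.4, 164 and 113 CPM against 275, 378, 516 and 360 CPM, though its log2 ratio turned to 0.30 in the CD45 ZsG-negative library with the rule reapplied at 2000 UMIs. *Ifit3*, an antiviral protein, had log2 ratios of -2.77, -3.19 and -2.55, and *Oasl2* was the lowest of the list in these 3 libraries. Thus the members had the most *Ifng* transcripts and fewer transcripts of interferon-induced genes.

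**Figure D3:**
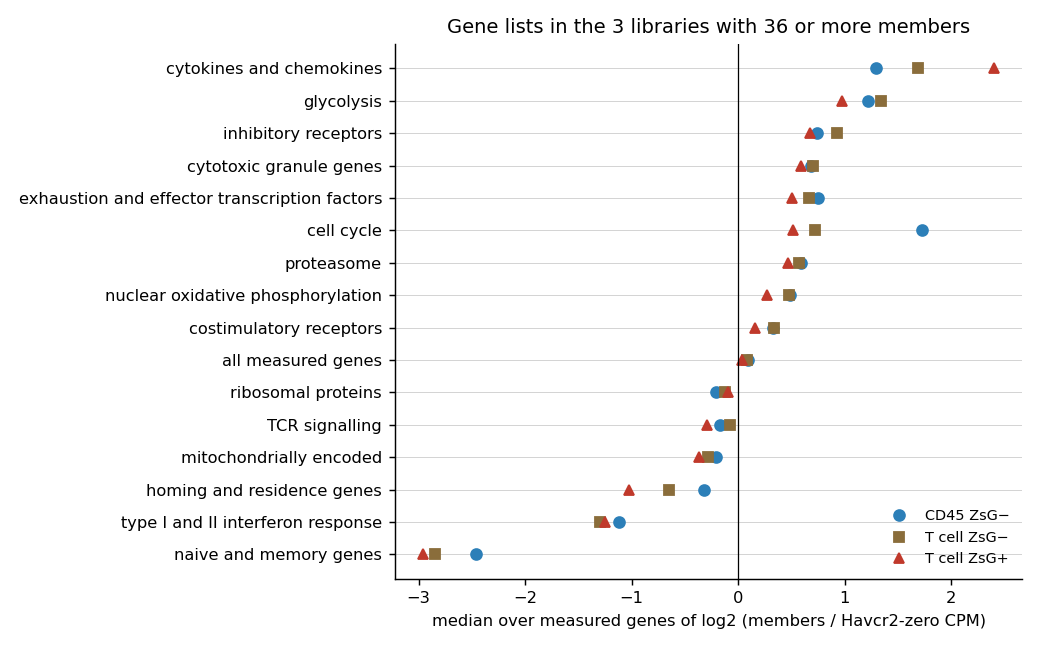
Median log2 ratio of members over *Havcr2*-zero CD8 T cells for 16 gene sets in the 3 libraries with 36 or more members (marker shape and color), over the genes with at least 50 UMIs. Cytokines and glycolysis lie right of 0 and interferon response and naive genes left of -1 in all 3 libraries, while all measured genes lie near 0.

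Cells just inside and just outside the threshold were set side by side. In the T cell ZsG-positive library *Ccl3* stood at 7029 CPM in the 40 members with 2 or more *Havcr2* UMIs, 5536 in the 44 members with exactly 1, 963 in the 83 *Pdcd1*+ *Havcr2*-zero cells and 24.8 in the 167 cells with neither gene. *Tcf7* ran the other way, at 1.78, 10.8, 59.8 and 175 CPM. In the CD45 ZsG-negative library *Gzmb* stood at 2712 CPM in the 84 members with 2 or more UMIs, 1128 in the 30 with 1, 715 in the 109 *Pdcd1*+ *Havcr2*-zero cells and 344 in the 251 cells with neither. *Pdcd1*+ *Havcr2*-zero cells lay between the members and the cells with neither gene in these values. In the T cell ZsG-negative library, with 23, 13, 67 and 238 cells in the same 4 classes, *Ccl3* at 2522, 409, 110 and 70.2 CPM and *Tcf7* at 12.5, 24.0, 108 and 193 CPM ran in the same order. *Gzmb* at 3288, 1306, 2181 and 771 CPM did not, nor did *Ifng* at 1655, 80.1, 288 and 404 CPM, of which the last was 57.9 CPM without the 1 cell that held 85.9% of its UMIs. The few cells with *Havcr2* but no *Pdcd1* UMI, 8, 1, 12 and 13 in the 4 libraries, were not counted as members.

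The members were not uniform. After thinning to 2000 UMIs, 31.6% of the 114 CD45 ZsG-negative members, 27.8% of the 36 T cell ZsG-negative and 32.1% of the 84 T cell ZsG-positive members showed at least 2 of 6 inhibitory receptors (*Lag3*, *Tigit*, *Ctla4*, *Entpd1*, *Cd160* and the 2B4 gene *Cd244a*), against 6.67%, 2.95% and 11.3% of *Havcr2*-zero cells. At least 2 of the cytokine genes *Ifng*, *Ccl3*, *Ccl4*, *Xcl1*, *Csf2* and *Tnf* were seen in 55.3%, 55.6% and 69.0% of these members, against 6.94%, 6.23% and 17.3% of *Havcr2*-zero cells. None of these cytokine genes was seen in 22.8%, 25% and 13.1% of the members. *Tigit* itself was rare, at 8.98 CPM or less in every set of members.

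Between ZsG-positive and ZsG-negative members of the T cell sort most genes differed little, and a small group of secreted factors stood far apart. Of 3507 measured genes, 1.28% were past 2-fold higher and 1.06% past 2-fold lower in the ZsG-positive members. Of the cytokine and chemokine list 7 of 11 measured were past 2-fold higher and none was lower, with a median of 1.70 against -0.02 over all measured genes. With the rule reapplied at 2000 UMIs this median was -0.040 over 2 measured genes. In *Havcr2*-zero cells of the same sort 5 of 10 measured cytokine genes were past 2-fold higher and none was lower, with a median of 0.70. Over all 5968 measured genes of those cells 51 were past 2-fold higher and 28 lower. In the CD45 sort 8.85% of 4171 genes were past 2-fold higher and 10.1% past 2-fold lower, and its ZsG-positive side held the 5 cells. There 3 of 9 measured cytokine genes were past 2-fold lower and none was higher, with a median of -0.49. With counts thinned and membership kept, this median of the CD45 sort turned to 0.23 over 6 measured genes.

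*Ifng* stood at 9073 CPM in ZsG-positive and 1214 CPM in ZsG-negative members of the T cell sort, a log2 ratio of 2.90 (2.78 to 3.03). It was seen in 66 of 84 and 21 of 36 members, and in 56.0% (exact binomial interval 44.7% to 66.8%) and 33.3% (18.6% to 51.0%) after thinning to 2000 UMIs. Macrophages of the same libraries, which should lack it, showed it in 0.444% and 0% of equally thinned cells. Single ZsG-positive members ranged from 0 to 127922 CPM with a median of 465, and ZsG-negative members from 0 to 12976 CPM with a median of 126. The 2 ranges thus overlap, and the medians differed in the same direction as the sums. The top cell held 50.5% of all *Ifng* UMIs of the ZsG-negative members, and without the top cell on each side the log2 ratio was 3.69. The CD45 sort had 639 CPM in its 5 ZsG-positive and 1033 CPM in its ZsG-negative members.

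*Xcl1* (lymphotactin), which draws cross-presenting dendritic cells, stood at 9325 CPM in ZsG-positive and 952 CPM in ZsG-negative members of the T cell sort, a log2 ratio of 3.29 (3.15 to 3.44). It was seen in 52 of 84 and 14 of 36 members. The CD45 sort had 51.8 and 1013 CPM, the opposite order, with 2 of 5 and 57 of 114 members showing it. With the whole rule reapplied at 2000 UMIs the log2 ratio of the T cell sort was -0.14 with 11 and 6 members, and with membership kept it was 2.69.

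*Ccl1*, the ligand of CCR8, stood at 1701 and 128 CPM in the ZsG-positive and ZsG-negative members of the T cell sort and was seen in 25 of 84 and 5 of 36 cells. *Ccl3* stood at 6288 and 1930 CPM, a log2 ratio of 1.70 (1.60 to 1.81), and *Ccl4* at 8497 and 4509 CPM, a log2 ratio of 0.91 (0.84 to 0.98). Macrophages express both *Ccl3* and *Ccl4*, in 40.9% and 69.3% of thinned macrophages of the ZsG-positive library. *Crtam*, an adhesion receptor of activated CD8 T cells, stood at 249 and 33.7 CPM, a log2 ratio of 2.88 (2.14 to 3.74), in 38 of 84 and 7 of 36 members. *Spry1*, a feedback inhibitor of growth factor signalling, stood at 50.3 and 6.73 CPM, in 24 of 84 and 3 of 36 members. These 5 genes were higher in the ZsG-positive members of this sort, and *Ccl1*, *Crtam* and *Spry1* were seen in 0% of thinned macrophages of either library. *Ccl1*, *Ccl3*, *Ccl4* and *Crtam* were also higher on the ZsG-positive side in *Pdcd1*+ *Havcr2*-zero cells, as set out below. In the ZsG-negative members 1 cell held 59.1% of the *Ccl3* and 78.9% of the *Ccl1* UMIs, and without the top cell on each side the log2 ratios were 2.74 and 5.60. The log2 ratio of *Ccl4* was 1.42 without the top cell on each side, and turned to -0.36 with the rule reapplied at 2000 UMIs. Without these cells the ratios of *Ccl3* and *Ccl4* lay outside their intervals above.

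Several further genes rested on few cells. *Csf2* (GM-CSF), the growth factor *Areg* and the protease gene *Prss2* had no UMI in the ZsG-negative members and stood at 55.6, 64.6 and 66.4 CPM in the ZsG-positive members, at least 8.26-fold, 9.60-fold and 9.86-fold higher when a sum of 0 is set to 3 counts. They were seen in 5, 8 and 7 of the 84 cells. *Il2*, interleukin-2, stood at 73.6 and 15.7 CPM, with 67 of its 82 UMIs in the ZsG-positive members in 1 cell and all 7 in the ZsG-negative members in 1 cell. Without these cells 15 and 0 UMIs were left, so the ZsG-positive side stayed higher. *Crabp2*, a retinoic acid binding protein, stood at 70.9 and 4.49 CPM in 9 and 2 cells. *Gzmc*, granzyme C, stood at 95.1 and 24.7 CPM, and its log2 ratio of 1.95 became -0.80 when cycling cells were kept. *Gzmf* came from 1 ZsG-negative cell.

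*Cd74*, the invariant chain of MHC class II, stood at 73.6 and 6.73 CPM. One member held 68.3% of its UMIs in the ZsG-positive library. The same cell held 90.9% of the *Siglech* and 97.3% of the *Ccr9* UMIs, markers of plasmacytoid dendritic cells, beside 22 *Cd8a* UMIs, and the plasmacytoid list summed to 53.0 CPM in these members and to 0 in the ZsG-negative ones. Without the top cell on each side the *Cd74* log2 ratio was 2.78. The 6.73 CPM of the ZsG-negative members are 3 UMIs in all, so this ratio rests on fewer still on that side.

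Genes lower in ZsG-positive members of the T cell sort were fewer and of modest level. *Gzma*, granzyme A, stood at 80.8 CPM in ZsG-positive and 249 CPM in ZsG-negative members, a log2 ratio of -1.62 (-2.04 to -1.21), and in the CD45 sort at 17.3 and 284 CPM. *Il7r* stood at 21.5 and 67.3 CPM, a log2 ratio of -1.64 (-2.48 to -0.82), and in the CD45 sort at 17.3 and 48.3 CPM. *Cmip*, an adaptor of T cell signalling, stood at 35.9 and 110 CPM, and *Ifi213*, an interferon-induced gene, at 22.4 and 74.1 CPM. *Cebpb*, a transcription factor abundant in macrophages, stood at 33.2 and 128 CPM, and its log2 ratio of -1.95 became 0.29 without the macrophage limit. The CD45 ZsG-positive values of *Gzma* and *Il7r* are 1 UMI each.

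The genes that mark exhaustion differed little, as did most measured genes. Over all 3507 measured genes 1.28% were past 2-fold higher and 1.06% lower, so the counts below do not set these lists apart. Of 17 measured exhaustion and effector transcription factors none was past 2-fold in either direction between ZsG-positive and ZsG-negative members of the T cell sort, with a median log2 ratio of 0.05, and none of 7 measured inhibitory receptors was, with a median of 0.16. *Lag3* stood at 229 and 186 CPM and *Tox* at 96.0 and 144 CPM. *Prf1* had a log2 ratio of 0.41 (0.18 to 0.65) and *Gzmb* of 0.20 (0.11 to 0.30), the latter turning to -0.070 when no macrophage UMI was allowed and to -0.032 when cycling cells were kept. Glycolysis had a median of -0.25, oxidative phosphorylation of -0.00 and the interferon response of -0.39, with 13 of 16 measured interferon genes below 0. The interferon median turned to 0.056 without the macrophage limit and to 0.084 with counts thinned.

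**Figure D4:**
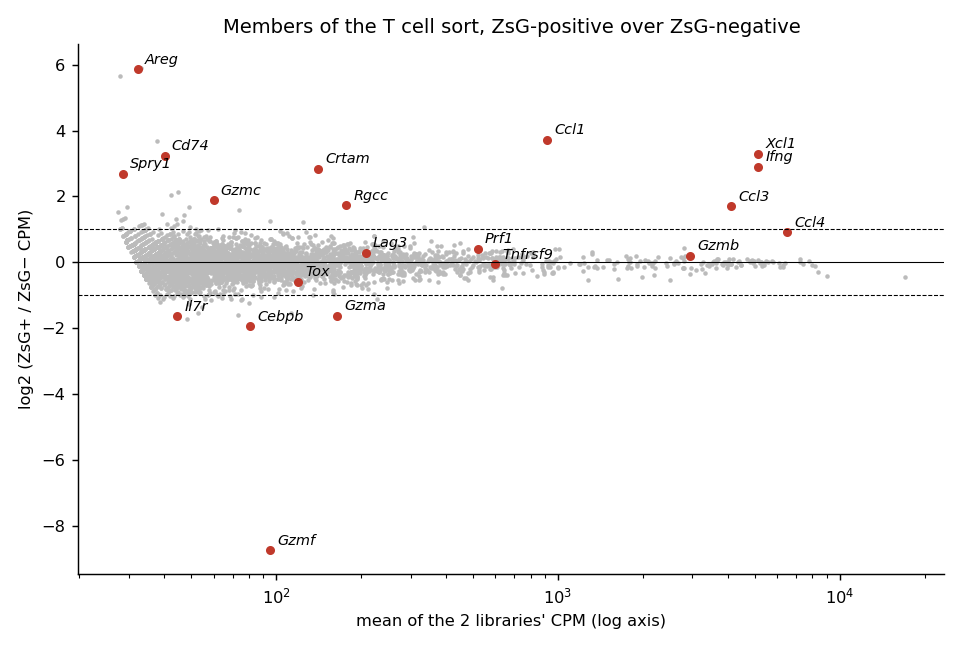
Every gene with at least 50 UMIs in members of the T cell sort, by the mean CPM of both libraries (log axis) and the log2 ratio of ZsG-positive over ZsG-negative CPM with 0.5 UMI added to each sum, with named genes in red and dashed lines at 2-fold. *Ifng*, *Xcl1* and *Ccl3* stand above the line at high level, while *Areg* and *Gzmf* at the extremes have no UMI on one side.

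The ZsG difference was also set out by *Pdcd1* and *Havcr2* class. In the T cell sort *Ifng* stood at 3455 CPM in ZsG-positive and 288 CPM in ZsG-negative *Pdcd1*+ *Havcr2*-zero cells, and at 102 and 404 CPM in cells with neither gene. One cell held 85.9% of the UMIs behind the 404 CPM, and without the top cell of each class *Ifng* stood at 83.5 and 57.9 CPM in cells with neither gene, the opposite order, and at 1340 and 103 CPM in *Pdcd1*+ *Havcr2*-zero cells. *Xcl1* stood at 1793 and 591 CPM in *Pdcd1*+ *Havcr2*-zero cells, and at 286 and 161 CPM in cells with neither. In *Pdcd1*+ *Havcr2*-zero cells *Ccl1* stood at 303 and 0, *Ccl3* at 963 and 110, *Ccl4* at 1453 and 495 and *Crtam* at 116 and 44.0 CPM. In cells with neither gene these stood at 0 and 0, 24.8 and 70.2, 352 and 269, and 51.5 and 19.0 CPM. *Ifng* was seen in 34 of 83 and 22 of 67 *Pdcd1*+ *Havcr2*-zero cells, and in 39 of 167 and 47 of 238 cells with neither gene. Over all *Havcr2*-zero cells the log2 ratios were 1.99 (1.87 to 2.10) for *Ifng* and 1.83 (1.69 to 1.97) for *Xcl1*, so the direction in the members was shared by the *Havcr2*-zero cells as a whole. Whether the difference was larger in the members was not tested.

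**Figure D5:**
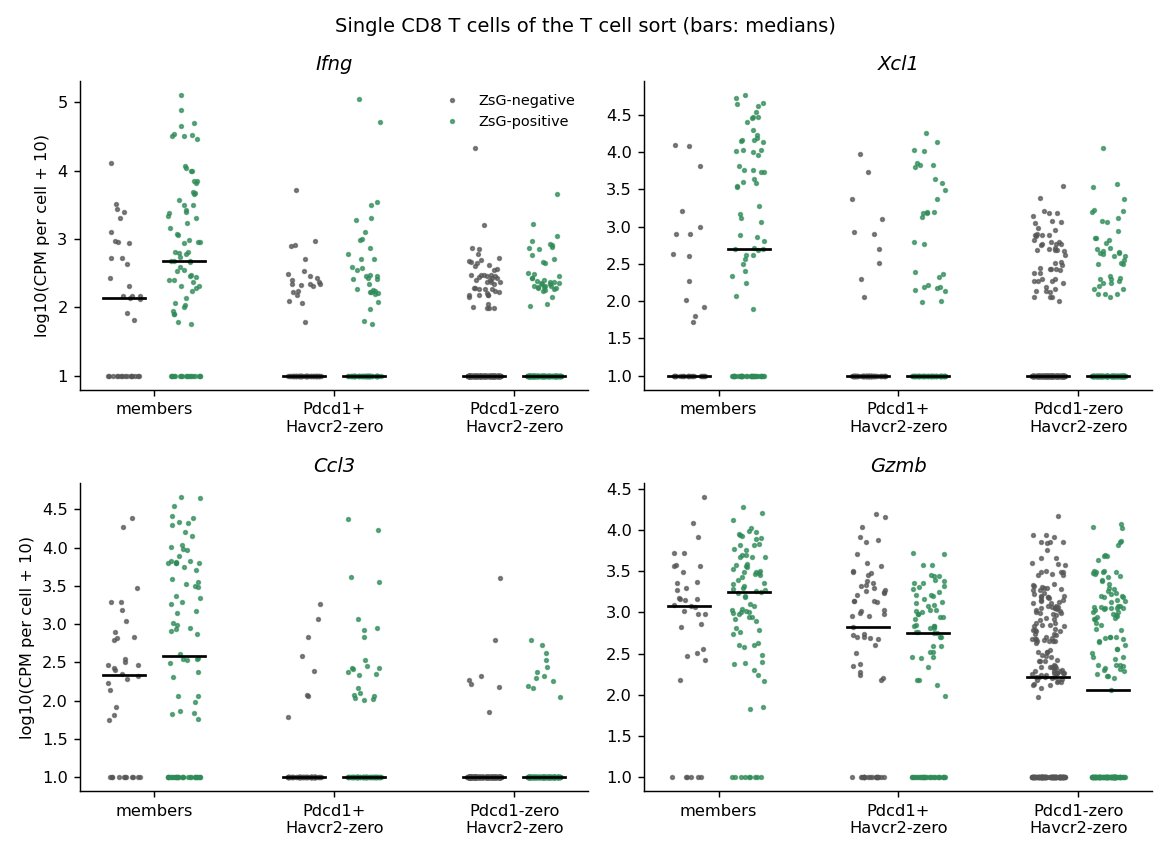
*Ifng*, *Xcl1*, *Ccl3* and *Gzmb* in single CD8 T cells of the T cell sort as log10 of CPM plus 10, for members, *Pdcd1*+ *Havcr2*-zero and *Pdcd1*-zero *Havcr2*-zero cells of the ZsG-negative (grey) and ZsG-positive (green) libraries, with black bars at the medians. The green members reach the highest *Ifng* value, 127922 CPM, and *Gzmb* overlaps between the libraries in all 3 sets of cells.

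Among genes with the same direction in both sorts, *Asns* (asparagine synthetase) stood at 52.1 and 24.7 CPM in ZsG-positive and ZsG-negative members of the T cell sort and 69.1 and 38.7 CPM in the CD45 sort, and the immediate early gene *Fos* at 48.5 and 24.7 CPM and at 86.4 and 24.9 CPM. *Ms4a4c*, a membrane protein also abundant in macrophages, stood at 66.4 and 26.9 CPM and at 346 and 51.4 CPM. *Wsb1*, *Clic4* and *Eid1* were lower on the ZsG-positive side of both sorts, with 35.0 and 76.3, 24.2 and 51.6, and 41.3 and 83.0 CPM in the T cell sort. In the CD45 sort *Wsb1* and *Clic4* had no UMI in the ZsG-positive members, and the other 4 were seen in 1 to 4 cells.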

How the data were processed

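Sorted cells of 4 libraries were measured with the 10x Genomics 3′ v3.1 kit. The deposited counts are whole-number UMI counts per gene and cell that the authors made with Cell Ranger on mm10 (6.1.2 in the processing notes and the T cell matrix header, 7.0.0 in the CD45 matrix header) and aggregated per sort. Whether aggregation evened depth is not stated. Barcode and gene name columns (other, as deposited) gave libraries and symbols.

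Kept cells had 1000 to 5999 genes and under 10% mitochondrial UMIs (CD45 sort) or 50 to 5999 genes and under 15% (T cell sort). The 4 libraries held 47537541, 56510578, 10030971 and 22100220 UMIs in the order CD45 ZsG-negative, CD45 ZsG-positive, T cell ZsG-negative and T cell ZsG-positive. The study's T cell threshold of 0.055% CD3 UMIs left 659 ZsG-negative and 780 ZsG-positive cells of the T cell sort. No doublet caller was run. Summed UMIs of each set of cells were scaled to CPM. Log2 ratios printed with an interval have exact conditional intervals, levels exact Poisson intervals and shares Clopper-Pearson intervals, at 95%. Counts of genes, list medians and the alternatives use ratios with 0.5 UMI added to each sum. Shares of cells were taken at full depth, or after thinning to 2000 UMIs where stated. Macrophages for background had at least 10 UMIs of *C1qa*, *C1qb* and *Lyz2* and no CD3 UMI.

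Data were simulated for the T cell sort's ZsG comparison of members, with 200 genes changed 4-fold, and 3491 genes entered the count. Of the genes that entered the count, 99.5% of the changed and 0.637% of the unchanged came back past 2-fold. Each sum was drawn with counting error only, without single cells. The simulation therefore checks the calculation, and gives no rate for data where UMIs gather in few cells, as here. edgeR 4.0.16 gave TMM factors for 1 alternative. Members and lists were chosen with earlier results of these data known. Genes were named by the smallest absolute log2 ratio over libraries or sorts, 15 or 10 per direction, and by level and size within lists. Because 1 library had 5 members, genes were also named over the other 3 libraries, and in the T cell sort alone, which was decided after the values were seen. Genes named outside these rules, such as *Irf8*, *Bhlhe40*, *Itgae*, *Ccr7* and the lowest or highest genes of lists, were likewise chosen after their values were seen. One gene of the naive and memory list is not reported here by name.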

Additional observations from a re-analysis of the deposited data

Results flagged for a closer look

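*Xcl1* had opposite ZsG-positive over ZsG-negative log2 ratios in members of the 2 sorts, -4.29 (-6.57 to -2.74) in the CD45 sort and 3.29 (3.15 to 3.44) in the T cell sort. The CD45 value rests on 3 UMIs in 2 of 5 ZsG-positive members and became 0.076 when cycling cells were kept. The difference between the sorts was not tested. Of the other genes with opposite order, *Areg*, *Gzmc* and *Rgcc* had no UMI in the 5 CD45 ZsG-positive members, and *Ccl1* stood at 51.8 and 147 CPM in the CD45 sort.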

How the results depend on the processing

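Of 227 values of the comparisons under the alternatives, 176 were counted as unchanged, 47 as moved and 4 as reversed. Of 1506 values of single genes 1070 were counted as unchanged, 416 as moved and 20 as reversed. Values counted as moved include some that changed sign. The CD45 sort's granule median, for example, went from -0.75 to 0.73 with no macrophage UMI. Log2 values here have 0.5 UMI added to each sum. The cause of each move was not tested, other than where fewer cells or genes enter by construction. The share ratio of the T cell sort kept its direction in the 8 settings that change its cells. TMM factors, totals without mitochondrial and ribosomal genes, the CD3 share and at most 30000 UMIs moved no comparison's value. No paired analysis was possible because no result comes from a test: members and *Havcr2*-zero cells were compared within each library, but the rule chose the members on that contrast, and each sort has 1 ZsG-positive and 1 ZsG-negative library. The 5 CD45 ZsG-positive members held 57865 UMIs together, the fewest of the 4 sets of members.

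Counts of genes past 2-fold were 898, 59, 772 and 722 for members over *Havcr2*-zero cells in the CD45 ZsG-negative, CD45 ZsG-positive, T cell ZsG-negative and T cell ZsG-positive libraries, and 792 and 82 for ZsG-positive over ZsG-negative members of the CD45 and T cell sorts. In this order, a minimum of 20 UMIs gave 1428, 246, 1423, 1256, 1865 and 402, a minimum of 200 gave 330, 7, 198, 205, 86 and 10, and thinning with the rule reapplied gave 205, 32, 245, 194, 12 and 3. Thinning with membership kept, chosen after seeing the data, gave 387, 14, 324, 247, 91 and 13. Comparison cells with *Pdcd1* gave 360, 21, 215 and 282 for the 4 libraries. The CD45 ZsG-positive library gave 26 under a mitochondrial limit of 5%, 14 with no macrophage UMI, 89 with cells weighted equally, 217 without the macrophage limit and 241 with cycling cells kept, the last 2 chosen after seeing the data. Under the same settings other than equal weights the CD45 sort's ZsG comparison gave 504, 2115, 466 and 404, and 1201 with at least 2 *Havcr2* UMIs, where its share ratio was -2.35. The T cell sort's ZsG comparison gave 203 without the macrophage limit.

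With the rule reapplied at 2000 UMIs, members over *Havcr2*-zero cells reversed for *Isg15* (0.30) and *Ccl5* (0.53) in the CD45 ZsG-negative library, for *Tox* (-0.58), *Ifng* (-0.039), *Gzmb* (-0.17) and *Tnfrsf9* (-1.04) in the T cell ZsG-negative library, and for *Lag3* (-0.43), *Ccl3* (-0.11), *Ccl4* (-0.39), *Ifng* (-2.26), *Irf8* (-0.091) and *Ccl5* (0.16) in the T cell ZsG-positive library. In that setting the ZsG comparison of the T cell sort reversed for *Ccl4* (-0.36), *Xcl1* (-0.14) and *Cebpb* (0.35), and its medians were -0.040 for cytokines, 0.33 for granule genes and 0.46 for glycolysis, over 2, 3 and 1 measured genes, while the cytokine median of the CD45 sort was -2.27. With membership kept the medians of the T cell sort were 0.30 for granule genes, 0.084 for interferon genes and 0.069 for oxidative phosphorylation, and the CD45 sort's cytokine median was 0.23. At full depth with the rule as it stands, the granule median was -0.18 in the T cell sort and -0.75 in the CD45 sort. The granule medians of 0.33 and 0.30 are therefore turns of direction.

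*Gzmb* between ZsG-positive and ZsG-negative members of the T cell sort was -0.070 with no macrophage UMI, where the CD45 sort's granule median was 0.73, and -0.032 with cycling cells kept. Keeping cycling cells also gave -0.80 for *Gzmc*, a median of -0.060 for oxidative phosphorylation and 0.076 for *Xcl1* in the CD45 sort. Without the macrophage limit the T cell sort gave 0.29 for *Cebpb* and 0.056 for the interferon median.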

Other observations

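T cell receptor beta variable genes were too sparse to describe clones: a *Trbv* UMI was seen in 21 of 114 CD45 ZsG-negative, 9 of 36 T cell ZsG-negative and 16 of 84 T cell ZsG-positive members, and the first gene by number of cells, *Trbv2*, *Trbv2* (tied with *Trbv20*) and *Trbv13-1*, was seen in 6, 2 and 4 cells.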
